A study of Rattus norvegicus with 60 samples.

Results

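The outer medulla of rats lacking Nox4 was compared with that of their Dahl salt-sensitive parent strain before any high-salt diet was given. The comparison holds 10 of the 60 libraries in the series, namely the 5 labelled NOX4, control diet, outer medulla and the 5 labelled SS, control diet, outer medulla, and it was run on the deposited raw counts. SS are wild-type Dahl salt-sensitive rats, which become hypertensive when fed salt, and NOX4 are knockouts derived from them. Both groups were kept under control conditions, called LS in the labels. The series also holds both strains after 7 or 21 days on a 4.0% NaCl diet and the cortex of the same 6 groups, each with 5 libraries. The labels give no sex, age, salt content of the control diet, type of Nox4 mutation or number of founder lines. They do not say whether the 5 libraries of a group came from separate rats, so p-values measure the spread between libraries. For the edgeR tests that spread was estimated over all 30 outer medulla libraries, and over all 60 libraries for the tissue comparison.

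NADPH oxidase 4 is a membrane enzyme that passes electrons from NADPH to oxygen and releases mainly hydrogen peroxide. It needs the partner subunit p22phox, encoded by Cyba, and in the kidney it is most abundant in the proximal tubule. The outer medulla holds the straight end of the proximal tubule (segment 3), the thick ascending limb, which reabsorbs sodium chloride at high energy cost, collecting ducts, thin limbs and the vasa recta. It is poorly oxygenated, and its tubules depend on mitochondrial respiration.

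Nox4 itself (ENSRNOG00000013925, chromosome 1) was a low transcript in this tissue. SS libraries 1 to 5 held 13.2, 11.1, 6.35, 8.89 and 9.29 CPM (counts scaled to the library total), and NOX4 libraries 1 to 5 held 3.34, 3.13, 4.96, 10.3 and 3.47 CPM. NOX4 library 4 lay inside the SS range, and the other 4 lay under every SS library. On the log2 CPM scale the difference was -1.05, with a 2-sided exact permutation p of 0.0317 over 252 splits, where the smallest possible p is 0.00794. Leaving out NOX4 library 4 gave -1.35 (exact p = 0.00794), and leaving out NOX4 library 1, 2, 3 or 5 took the exact p to between 0.0556 and 0.0635. The edgeR quasi-likelihood test across all genes gave -0.94 ± 0.60 (SE; adjusted p = 0.293). Counts per gene cannot separate reads of a mutant transcript from those of an intact one. Cyba did not pass the edgeR test (log2 fold change 0.24 ± 0.21, adjusted p = 0.472). Of 9 tested oxidase genes 1 was called higher (11.1%, beside 8.80% of all genes tested). It was Poldip2, whose product binds p22phox (0.47 ± 0.14, adjusted p = 0.0259, higher in 5 of 5 NOX4 libraries than the SS mean). Its call was lost in 4 of 10 single omissions.

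The 10 libraries differed in technical measures along the line between the strains. Library totals were 12.1 to 18.8 M counts in SS and 15.7 to 29.2 M in NOX4. Thinned to 10 M counts, SS libraries 2, 3 and 5 held 14863, 15284 and 14582 genes with at least 1 count, while the other 7 held 17583 to 18252; the former are called low-complexity libraries here. The long-gene index, the mean log2 CPM of genes over 8000 bases minus that of genes of 500 to 1000 bases, was 3.03 to 3.28 in SS and 2.30 to 2.76 in NOX4, with no overlap. Names of the SS libraries in the labels precede those of the NOX4 libraries, so strain and any effect of library order cannot be told apart.

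**Figure D1:**
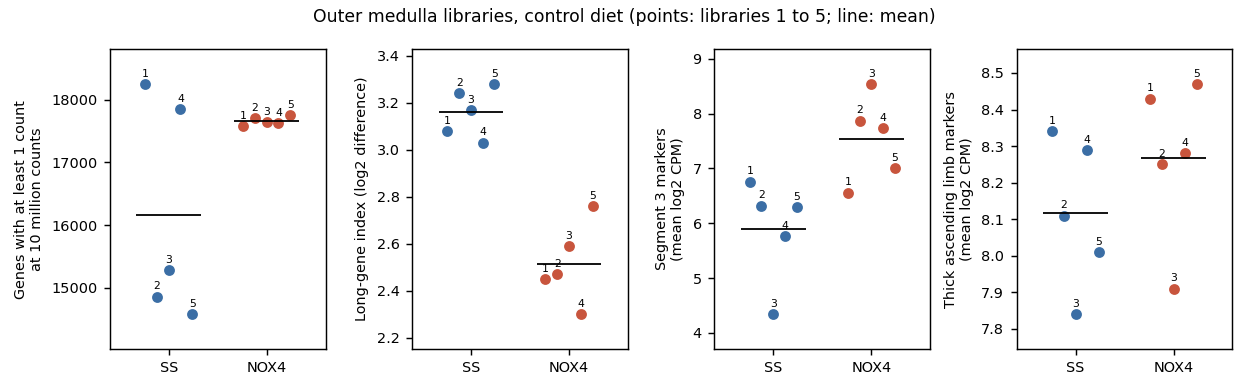
Each point is 1 outer medulla library on the control diet, numbered 1 to 5, and the line is the group mean. From left to right the axes give genes detected at 10 M counts, the long-gene index, and the mean log2 CPM of segment 3 and of thick ascending limb markers. SS libraries 2, 3 and 5 hold 14582 to 15284 genes, the long-gene index separates the strains, and segment 3 markers are lowest in SS library 3 (4.34) and highest in NOX4 library 3 (8.54).

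In this fit 2346 of 15799 genes differed between the strains at an adjusted p under 0.05 (edgeR quasi-likelihood F test, Benjamini-Hochberg). In NOX4, 1390 genes were higher (8.80% of those tested) and 956 lower (6.05%). The CPM ranges of the strains did not overlap for 2290 of the 15799 genes (14.5%). That is the share to read beside each gene said here not to overlap. Of the 2346, 974 stayed called whichever 1 of the 10 libraries was left out, 611 higher and 363 lower. Of the 94 called genes named here and in the observations that follow, 56 stayed called in this way and 23 lost the call in at least 5 of the 10 omissions. The authors' deposited table called 3538 genes, and 2123 of the 2346 were among them, each with the same sign. Counts of higher genes fell to 915, 893, 784 and 762 without SS library 3 or NOX4 libraries 2, 3 or 4, and counts of lower genes to 627, 569, 572 and 467 without NOX4 libraries 1 to 4. With the long-gene index as a covariate, an alternative added after the data were seen, 17 genes were higher and 32 lower, and with the segment 3 marker score as covariate 297 and 162. Whether strain or these measures set the calls was not tested, and the same holds for every gene group described here.

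Gene length and the strain difference went together. Of 1399 tested genes of 500 to 1000 bases, 16.4% were higher in NOX4 and 1.72% lower, with a median log2 fold change of 0.18. Of 322 genes over 8000 bases, 2.80% were higher and 36.3% lower, with a median of -0.42, and without the low-complexity libraries that median was -0.41. The median for the longest genes was -0.39 in the comparison after 7 days of salt, -0.08 after 21 days and -0.29 in cortex on the control diet.

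**Figure D2:**
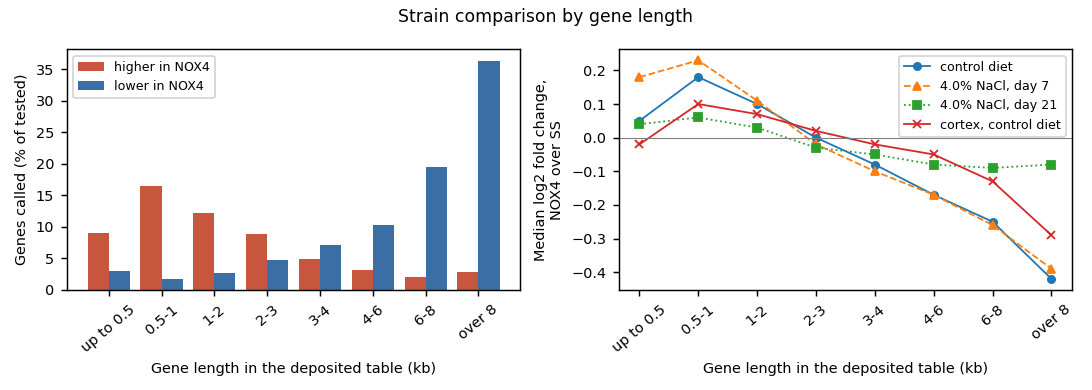
Bars give the share of tested genes called higher or lower in NOX4 outer medulla on the control diet in 8 classes of gene length, and lines the median log2 fold change per class in 4 strain comparisons. The share called higher peaks at 16.4% in genes of 0.5 to 1 kb and the share called lower at 36.3% in genes over 8 kb, and the line for 21 days of salt stays nearest to 0 in the longest class.

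Thick ascending limb and principal cell markers of the outer medulla were abundant in both strains. Umod, the thick ascending limb's main secreted protein, stood at 9860 to 13300 CPM in SS and 9720 to 13600 CPM in NOX4. Slc12a1, the sodium-potassium-chloride cotransporter of that segment, stood at 5170 to 6020 and 3060 to 5850 CPM. Neither passed the test (log2 fold changes -0.05 ± 0.32 and -0.23 ± 0.22). Of 14 tested thick ascending limb genes 1 was higher and none lower in NOX4 (median 0.07), and of 11 principal cell, 15 intercalated cell and 13 macrophage genes edgeR called none (2, 3 and 2 at an unadjusted p under 0.05; 0, 0 and 2 by DESeq2; 0, 1 and 1 by limma voom). Aqp2, the water channel of principal cells, had 758 to 1370 and 624 to 1640 CPM. Endothelial genes had 1 of 17 higher, and smooth muscle and pericyte genes 2 of 16 lower, Cald1 (-0.53) and Des (-0.49), calls that 5 of 10 omissions ended. Vwf, the clotting factor carrier made by endothelium, was the endothelial gene higher, at 27.4 to 49.8 CPM in SS and 58.5 to 121 CPM in NOX4 (1.01 ± 0.22, adjusted p = 0.00424). Adipocyte markers had 2 of 7 higher and 1 lower (median 0.70), and their mean log2 CPM was 2.88 to 3.51 in SS and 3.96 to 4.5 in NOX4, with no overlap. The genes called were Cidec, a lipid droplet protein (1.97 to 24.2 CPM in SS and 30.1 to 100 CPM in NOX4, 2.01 ± 0.67), Plin1, which coats lipid droplets (at most 1.03 CPM, 2.63 ± 0.87), and the lipoprotein lipase gene Lpl (-0.44 ± 0.14), calls lost in 6, 6 and 7 of 10 single omissions. Adipoq, the adiponectin gene that defines adipocytes, was at 4.58 to 19.1 CPM in SS and 12.9 to 17.3 CPM in NOX4 (0.04 ± 0.26), and the part of adipocyte RNA in other results was not tested.

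Among the tubule segment markers, calls were concentrated in segment 3 of the proximal tubule. The list for proximal segments 1 and 2 had 8.33% of members called higher, beside 8.80% of all genes tested. Its median log2 fold change was 1.99 all the same. By edgeR 7 of its 12 genes were higher at an unadjusted p under 0.05, and DESeq2 called 3 and limma voom 1. Distal convoluted tubule genes had 1 of 7 higher (14.3%). Of 12 tested segment 3 genes 9 were higher in NOX4 and none lower (median log2 fold change 1.71, against -0.02 over all genes tested). Fold changes were above 0 for 11 genes and below 0 for 1 (-0.59), which had an unadjusted p under 0.05 by edgeR. DESeq2 called 11 of the genes, 10 of them higher, and limma voom 8, of which 7 were higher. Slc7a13, the aspartate and glutamate transporter that defines segment 3, had 1530, 1200, 281, 663 and 1170 CPM in SS and 1230, 3590, 5730, 3480 and 1780 CPM in NOX4. SS library 3 was the lowest and NOX4 library 3 the highest, NOX4 library 1 lay within the SS range, and the log2 fold change was 1.71 ± 0.56 (adjusted p = 0.0395). Ggt1, the brush border enzyme that starts glutathione breakdown, had 245, 185, 70, 113 and 167 CPM in SS and 310, 650, 1130, 659 and 378 CPM in NOX4. Its groups did not overlap (2.01 ± 0.55, adjusted p = 0.0165). The organic anion transporter gene Slc22a7 (2.29 ± 0.71) and the fatty acid transporter gene Slc27a2 (1.83 ± 0.57) were higher too, also without overlap. Single omissions ended the call in 7 of 10 cases for Slc7a13, 6 for Slc22a7 and Slc27a2 and 1 for Ggt1.

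The summed level of the segment 3 list was 866 to 3950 CPM in SS and 3690 to 15300 CPM in NOX4. That of the list for segments 1 and 2 was 229 to 1380 and 1310 to 5570 CPM. Slc22a7 had no count in SS library 3, and of the segment 1 and 2 genes Slc34a3, Slc5a12, Slc5a2 and Slc6a19 had none in at least 1 SS library. In that second list 1 of 12 genes was called, Slc34a1, the sodium-phosphate cotransporter, at 28.3 to 249 CPM in SS and 364 to 1490 CPM in NOX4 (2.43 ± 0.78, adjusted p = 0.0372), lost in 6 of 10 omissions, although all 12 fold changes were above 0 (median 1.99). In whole tissue, more proximal tubule cells in a piece and more of these transcripts per cell cannot be told apart. The count of 9 segment 3 genes fell to 1, 1, 2, 1, 0 and 2 without SS libraries 3, 4 or 5 or NOX4 libraries 2, 3 or 4, and to 0 without the low-complexity libraries, where the median was 1.55.

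Lists of transport and metabolism that the proximal tubule carries out also had members higher in NOX4. Of 30 organic ion, xenobiotic and cytochrome P450 genes 11 were higher and none lower (median 1.49), and of 32 genes of arginine, polyamine and amino acid metabolism 11 were higher and 2 lower (median 1.05). Odc1, the first enzyme of polyamine synthesis, had 555, 472, 247, 375 and 456 CPM in SS and 729, 1200, 2190, 1400 and 1030 CPM in NOX4. Every NOX4 library lay above every SS library, again with SS library 3 lowest and NOX4 library 3 highest (1.64 ± 0.40, adjusted p = 0.00911). Glul, which makes glutamine from glutamate and ammonia (1.52 ± 0.42), and Cbs, of transsulfuration (1.38 ± 0.34), showed the same extremes, with SS library 3 lowest and NOX4 library 3 highest. Bckdha, a subunit of the branched-chain keto acid dehydrogenase, differed in this: SS libraries had 182, 170, 186, 185 and 239 CPM and NOX4 libraries 359, 349, 322, 355 and 310 CPM. Its NOX4 library 3 was not the highest, and the fold change was 0.82 ± 0.16 (adjusted p = 0.00197). Sat1, which acetylates polyamines for export, was lower in NOX4 (-0.68). The 11 organic ion genes fell to 7, 1, 2 and 2 without SS libraries 2 to 5 and to 4, 1 and 2 without NOX4 libraries 2 to 4. The 11 amino acid genes fell to 4, 5 and 5 without SS libraries 3 to 5 and to 7, 3 and 4 without NOX4 libraries 2 to 4. Without the low-complexity libraries they were 2 and 3. With the compared groups alone these counts were 19 and 21, with limma voom 10 and 21, and with the segment 3 score as covariate 0 each.

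In the list of peroxide, thioredoxin and glutathione defence genes 8 of 30 were higher in NOX4 and 2 lower (median 0.34). Sod1, the cytosolic superoxide dismutase, had 186, 237, 138, 145 and 147 CPM in SS and 283, 468, 641, 536 and 295 CPM in NOX4. The groups did not overlap (1.38 ± 0.40, adjusted p = 0.0212), and again SS library 3 was the lowest and NOX4 library 3 the highest. Gss, of glutathione synthesis (1.61 ± 0.48), and Prdx6, a peroxiredoxin (0.92 ± 0.23), were also higher without overlap, as was Gclm, the modifier of the first glutathione enzyme (1.44). The genes lower were the glutaredoxin Glrx (-0.73) and Nfe2l2, which encodes the antioxidant regulator NRF2 (-0.26), each losing its call in 8 of 10 omissions, as Gclm did in 7. The count of 8 fell to 4, 2, 2 and 4 without SS libraries 1, 3, 4 or 5 and to 3, 2 and 1 without NOX4 libraries 2 to 4. It was 7 without the low-complexity libraries, 13 with the compared groups alone and 17 with limma voom. With the segment 3 score as covariate it was 0 (median 0.06).

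Among nuclear genes of the respiratory chain over 1 in 3 were higher in NOX4, while no transcript of the mitochondrial genome was called higher. Of 31 complex I genes 11 were higher and none lower (median 0.32), and among the 37 tested for complexes II to V there were 16 higher and none lower (median 0.38). Ndufb6, a complex I accessory subunit, had 46.4, 53.5, 55.7, 52.2 and 41.2 CPM in SS and 101, 102, 87, 107 and 87.1 CPM in NOX4. The strains were well separated, with a narrow range in each (0.96 ± 0.13, adjusted p = 7.63e-05). Cox8a, of cytochrome oxidase, stood at 307 to 370 CPM in SS and 558 to 693 CPM in NOX4 (0.89 ± 0.15), and Ndufa8 (0.63 ± 0.12), Ndufv1 (0.62 ± 0.13), Cox6a1 (0.81 ± 0.13) and Uqcrq (0.77 ± 0.13) were higher in every NOX4 library than in any SS library. These 6 genes stayed called with each single library left out. The counts for complexes II to V fell to 10, 9 and 9 without SS library 5 or NOX4 libraries 2 or 4, and to 8 without the low-complexity libraries. Of 11 mitochondrially encoded genes none was higher and 1 lower, Mt-atp8 (-1.06 ± 0.24, adjusted p = 0.00577), and mitochondrial transcripts made up 11.2 to 14% of counts in SS and 10.2 to 12.6% in NOX4.

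Of 42 mitochondrial ribosomal protein genes tested, 17 were higher and none lower (median 0.45), and all 42 fold changes were above 0. Mrps16, of the small subunit, had 31.4, 24.8, 31.7, 27.7 and 17.3 CPM in SS and 48.2, 51.1, 40, 55.2 and 39.0 CPM in NOX4. The groups did not overlap (0.81 ± 0.18, adjusted p = 0.00501), and Mrpl2 (0.75 ± 0.16) and Mrps12 (0.82 ± 0.18) were higher with overlap. Without NOX4 libraries 2 or 4 the 17 fell to 11 and 10. These are short genes, with median lengths of 705 bases for complex I, 731 for complexes II to V and 956 for the mitochondrial ribosome, so the share to read beside theirs is the 16.4% of genes of 500 to 1000 bases that were higher. Cytosolic ribosomal protein genes, as short (median 634 bases), had 2 of 46 higher and none lower (median 0.14). With the long-gene index as a covariate the medians were -0.07, -0.02 and -0.02 for the first 3 lists and -0.41 for cytosolic ribosomal genes, with none higher.

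Fatty acid oxidation had 9 of 32 genes higher and 1 lower (median 0.42). Acaa1a, a peroxisomal thiolase, had 36.6, 24.0, 36.9, 31.2 and 44.3 CPM in SS and 77.3, 76.2, 87.0, 91.4 and 68.0 CPM in NOX4. The lowest NOX4 library exceeded the highest SS library (1.21 ± 0.20, adjusted p = 0.000541), as for the acyl-CoA dehydrogenases Acads (1.10 ± 0.22) and Acadm (0.84 ± 0.19). Pdk4, the kinase that holds back pyruvate oxidation, was lower (-0.79), a call that 7 of 10 omissions ended. In the tricarboxylic acid cycle list 2 of 23 were higher, a share like the 8.80% of all genes tested, with Mpc2 of the mitochondrial pyruvate carrier among them (0.88 ± 0.21). Without NOX4 library 2, 3 or 4 the 9 fatty acid genes fell to 5 each time.

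**Figure D3:**
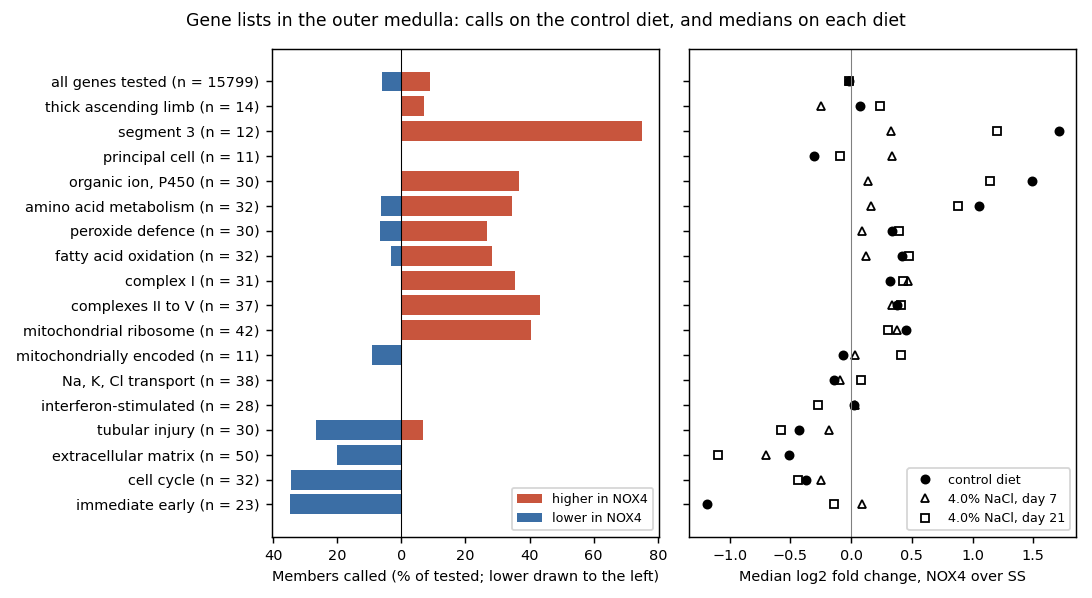
The left panel gives, for all genes tested and 17 lists, the percent of tested members called higher (right of 0) or lower (left of 0) in NOX4 outer medulla on the control diet, and the right panel the median log2 fold change of each list on the control diet and after 7 and 21 days of 4.0% NaCl. Segment 3 has the highest share of members called higher (9 of 12), and immediate early genes have a median of -1.19 on the control diet but 0.09 and -0.14 on salt.

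Calls among matrix genes were all to the lower side in NOX4, and among injury genes mostly so. Of 50 matrix and remodelling genes 10 were lower and none higher (median -0.51). Dcn, the collagen-binding proteoglycan decorin, had 306, 284, 373, 298 and 333 CPM in SS and 193, 153, 202, 172 and 186 CPM in NOX4. The groups were apart (-0.82 ± 0.19, adjusted p = 0.00756). Ltbp2, a microfibril protein (-0.85 ± 0.17), and Tnc, a matrix glycoprotein of remodelling tissue (-1.24 ± 0.35), were lower without overlap, and Col6a3 of collagen VI was lower with overlap (-0.99 ± 0.28). Fibronectin (Fn1, -0.93), Fbn1 (-0.92) and the inhibitor Timp1 (-1.04) were also called, but lost the call in 7, 4 and 4 of 10 omissions. The 10 fell to 2 without SS library 3 and to 5, 4 and 2 without NOX4 libraries 1, 2 and 4, and there were 11 without the low-complexity libraries. The median length of the list was 3680 bases, and among all genes of 3000 to 4000 bases 7.13% were lower. With the long-gene index as a covariate the median was -0.07 and none was lower, where 32 of all genes tested were.

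Of 30 tubular injury genes 8 were lower and 2 higher (median -0.43). Spp1, the secreted osteopontin, had 3840, 4240, 5340, 3940 and 4520 CPM in SS and 2130, 2780, 2140, 2100 and 2180 CPM in NOX4. NOX4 library 2 stood above the other 4, and all 5 stood under SS (-0.95 ± 0.23, adjusted p = 0.00957). Lcn2, the injury marker NGAL, had 41.9, 39.4, 81.7, 47.8 and 47.9 CPM in SS and 26.0, 28.9, 23.1, 18.1 and 24.1 CPM in NOX4, with SS library 3 far above the rest of its group (-1.11 ± 0.31, adjusted p = 0.0178). The 2 higher were Krt19, a keratin of ductal epithelium (0.96 ± 0.27), and Tff3, a trefoil peptide (1.64), calls that 3 and 7 of 10 omissions ended. The count of 8 fell to 1 and 5 without SS libraries 3 or 5, to 4, 5, 5 and 2 without NOX4 libraries 1 to 4, and to 2 without the low-complexity libraries. Cxcl14, a chemokine of epithelia and stroma, was among 3 of 31 cytokine and adhesion genes lower (4.35 to 13.9 CPM in SS, 2.26 to 3.46 CPM in NOX4, -1.48 ± 0.29, adjusted p = 0.00197).

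In the renin-angiotensin list the precursor and the receptors differed in opposite directions. Of 15 genes tested 2 were higher and 2 lower, 13.3% each beside 8.80% and 6.05% of all genes tested. Both type 1 angiotensin receptor genes, which mediate the pressor and antinatriuretic actions of angiotensin II, were lower in NOX4. Agtr1b had 16.2, 9.14, 12.6, 10.6 and 17.2 CPM in SS and 6.96, 3.73, 4.49, 6.99 and 7.57 CPM in NOX4, with no overlap (-1.14 ± 0.25, adjusted p = 0.00387). Agtr1a was at 92.0 to 158 CPM in SS and 57.8 to 91.3 CPM in NOX4 (-0.64 ± 0.21, adjusted p = 0.0365), and lost its call with 5 of the 10 single libraries left out. Agt, the angiotensinogen gene, had 29.6, 34.5, 12.3, 14.4 and 29.7 CPM in SS and 50.4, 93.3, 165, 98.6 and 50.8 CPM in NOX4. All NOX4 libraries exceeded SS (1.93 ± 0.56, adjusted p = 0.0227), and 3 of 10 single omissions ended the call. SS library 3 was the lowest and NOX4 library 3 the highest, as for Slc7a13 of segment 3. With the segment 3 score as covariate no gene of this list was called. Whether the proximal tubule content of the pieces set the level of Agt was not tested. The brush border aminopeptidase gene Anpep was higher with overlap (1.84 ± 0.62), and 7 of 10 single omissions ended its call.

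Immediate early genes, which are switched on within minutes of a stimulus through cAMP, calcium or growth factor signals, were called in the lower direction only. Of 23 tested, 8 were lower in NOX4, none was higher and 15 did not pass (median -1.19). The 8 were Nr4a2, Nr4a3, Atf3, Btg2, Egr2, Jun, Dusp1 and Fosb; the last 4 are named for this count after their values were seen. Crem, a cAMP-responsive repressor gene outside that list, was also among the 10 largest decreases. Because several of these genes carry the cAMP response element, the upstream sequences of 4 are shown. They are the 250 bases before each annotated start in RefSeq (GRCr8): Btg2 at chr13:48087691-48087940 (minus strand), Dusp1 at chr10:17184603-17184852 (plus), 2 internal starts of Crem at chr17:58984547-58984796 and chr17:58985240-58985489 (plus), and Nr4a2 at chr3:62104888-62105137 (minus), each written 5′ to 3′. Capitals mark the full element TGACGTCA in the first 4 sequences and the half-site TGACG in Nr4a2.
Btg2: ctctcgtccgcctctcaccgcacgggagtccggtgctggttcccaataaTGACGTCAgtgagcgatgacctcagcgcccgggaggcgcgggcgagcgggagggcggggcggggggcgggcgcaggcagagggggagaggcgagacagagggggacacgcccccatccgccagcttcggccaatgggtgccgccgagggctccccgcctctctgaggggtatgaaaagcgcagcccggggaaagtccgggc
Dusp1: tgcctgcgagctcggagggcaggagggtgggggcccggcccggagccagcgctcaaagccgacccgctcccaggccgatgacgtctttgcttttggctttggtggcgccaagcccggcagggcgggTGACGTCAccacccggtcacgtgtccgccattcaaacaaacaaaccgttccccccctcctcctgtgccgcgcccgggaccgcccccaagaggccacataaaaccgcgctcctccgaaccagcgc
Crem, upstream internal start: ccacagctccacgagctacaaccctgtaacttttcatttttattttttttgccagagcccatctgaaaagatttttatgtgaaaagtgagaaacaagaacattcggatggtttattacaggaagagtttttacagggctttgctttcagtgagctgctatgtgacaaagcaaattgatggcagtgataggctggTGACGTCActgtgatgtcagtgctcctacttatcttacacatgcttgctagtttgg
Crem, downstream internal start: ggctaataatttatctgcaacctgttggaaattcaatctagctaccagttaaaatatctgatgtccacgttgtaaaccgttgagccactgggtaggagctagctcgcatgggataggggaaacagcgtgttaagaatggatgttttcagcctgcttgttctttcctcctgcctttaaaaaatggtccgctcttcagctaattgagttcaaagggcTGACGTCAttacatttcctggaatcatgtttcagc
Nr4a2: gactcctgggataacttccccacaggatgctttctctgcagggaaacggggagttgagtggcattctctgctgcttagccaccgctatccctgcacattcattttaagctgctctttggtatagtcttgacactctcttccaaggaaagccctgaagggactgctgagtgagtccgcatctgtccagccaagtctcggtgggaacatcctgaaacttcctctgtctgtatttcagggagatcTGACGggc

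The element TGACGTCA, searched on both strands, was in 1.59% of 33469 such RefSeq windows of 250 bases, and the half-site TGACG, which every full element contains, in 18.2%. In the list, 15 of 23 tested genes had an entry, of which 3 held the full element and 10 the half-site. Of the 5 lower genes with an entry, 2 held the full element (Btg2 at -201 and Dusp1 at -124 from the start) and 4 the half-site (these 2, Nr4a2 at -8 and Egr2 at -66). Jund, at -221, held the third full element, and its log2 fold change was 0.12 (adjusted p = 0.619). Crem has 3 entries: the 2 internal starts shown hold the full element at -56 and -35, and the most upstream start holds half-sites at -241 and -6. An internal Crem promoter is known to drive the short repressor ICER. These matches describe the letters only, and the counts do not separate Crem transcripts by start.

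The level of these genes varied among SS libraries far more than among NOX4 libraries. Nr4a2, an orphan nuclear receptor, had 8.86, 22.8, 76.0, 21.7 and 13.1 CPM in SS and 5.24, 5.40, 5.52, 5.10 and 4.84 CPM in NOX4. All SS libraries lay above all NOX4 libraries (-2.45 ± 0.38, adjusted p = 0.000292), and the call held with any 1 library left out. Crem had 27.0, 29.1, 116, 178 and 31.1 CPM in SS and 19.6, 21.2, 21.1, 22.4 and 18.3 CPM in NOX4. SS libraries 3 and 4 stood apart from the other 3, which still lay above NOX4 (-1.89 ± 0.40, adjusted p = 0.00372). Nr4a3 (-3.19 ± 0.82, adjusted p = 0.0121) was high in the same libraries, SS 3 and 4 (32.3 and 28.7 CPM), and at 1.00 to 3.56 CPM in the other 8.

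Btg2, an antiproliferative gene, had 66.9, 509, 251, 155 and 68.7 CPM in SS and 51.1, 71.0, 74.5, 50.3 and 45.5 CPM in NOX4. SS libraries 2, 3 and 4 were high and libraries 1 and 5 within the NOX4 range (-1.84 ± 0.54, adjusted p = 0.0241). Dusp1, a phosphatase that switches off MAP kinases, had 125, 539, 398, 255 and 32.8 CPM in SS and 110, 113, 112, 46.9 and 84.1 CPM in NOX4, the same 3 SS libraries being high (-1.53 ± 0.52, adjusted p = 0.0465). Atf3 (-1.59 ± 0.45) was high in SS libraries 2 and 3, and Egr2 (-2.21 ± 0.70) stood at 57.5 CPM in SS library 2 against 2.13 to 7.74 CPM in the other 9.

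Other members had large fold changes that did not pass. Fos, named after its values were seen like the next 2, had 39.8, 600, 113, 53.9 and 13.7 CPM in SS and 5.70, 27.5, 49.8, 4.77 and 15.1 CPM in NOX4 (-2.99 ± 1.23, adjusted p = 0.0943). Egr1 ran from 47.1 to 1630 CPM in SS and 31.1 to 233 CPM in NOX4 (-2.45 ± 1.04, adjusted p = 0.105), and Nr4a1 from 13.2 to 256 and 16.1 to 67.8 CPM (-2.08 ± 0.82, adjusted p = 0.0831). Ptgs2, the inducible cyclooxygenase, followed the same libraries, with 11, 37.1, 45.4, 49.8 and 8.53 CPM in SS and 4.00 to 15.5 CPM in NOX4 (-1.76 ± 0.57, adjusted p = 0.0385). Single omissions ended the call in 7 of 10 cases for Ptgs2 and Jun, 8 for Dusp1 and Fosb, 5 for Egr2 and 2 for Btg2 and Atf3. The mean log2 CPM of the immediate early list was 4.52, 6.29, 6, 5.55 and 3.71 in SS and 4.13 to 4.81 in NOX4, so that SS library 5 lay under every NOX4 library. The count of 8 was 2 and 4 without SS libraries 2 or 3, and 4, 4, 5, 3 and 4 without NOX4 libraries 1 to 5. It was 2 without the low-complexity libraries; DESeq2 called 13 genes of the list and limma voom with quality weights 1.

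**Figure D4:**
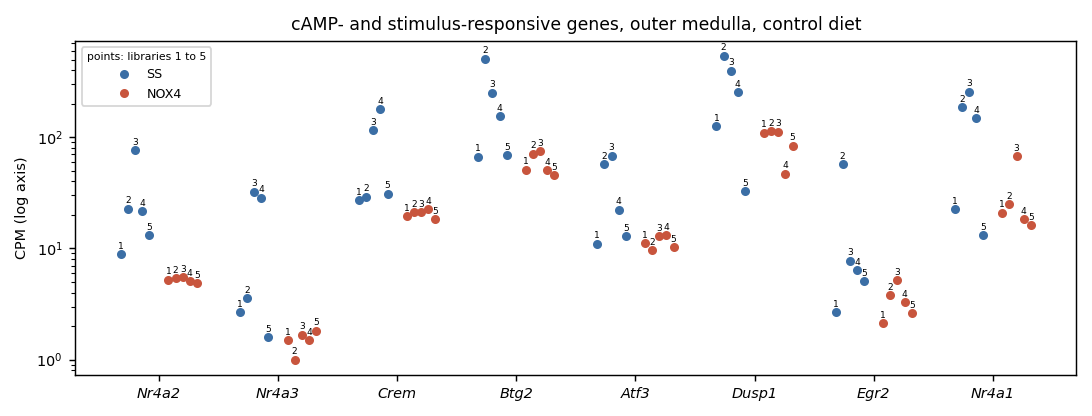
Each point is the CPM of 1 outer medulla library on the control diet (log axis), numbered 1 to 5, for 8 genes in SS and NOX4. In Nr4a2 and Crem no library of 1 strain reaches the other, and in Btg2, Dusp1 and Nr4a1 SS libraries 2, 3 and 4 stand above SS libraries 1 and 5.

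Of 32 cell cycle genes 11 were lower in NOX4 and none higher (median -0.37). Ccne2, cyclin E2 of entry into DNA synthesis, had 12.2, 20, 10.8, 13.9 and 20 CPM in SS and 6.50, 7.47, 7.16, 6.15 and 7.22 CPM in NOX4. The groups did not overlap (-1.16 ± 0.18, adjusted p = 0.000287). The spindle checkpoint kinases Bub1 (-1.34 ± 0.23) and Bub1b (-1.20 ± 0.28) and the mitotic motor Cenpe (-1.22 ± 0.24) were lower in all NOX4 libraries, and Bub1 and Bub1b were highest in SS library 5 (19.7 and 11.4 CPM). Mki67 (-1.10) and Top2a (-1.01), usual proliferation markers, were called as well. The count fell to 7 without SS library 3 and to 4 without the low-complexity libraries. The median length of these genes was 2920 bases; among all genes of 2000 to 3000 bases 4.68% were lower.

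The genes with the firmest statistics changed by modest amounts. By p-value the first 6 with a symbol were Tmem223, Chmp1a, Crebbp, Ndufb6, Slc22a17 and Prkag1. Chmp1a, of the membrane-remodelling ESCRT machinery, had 93.3, 79.1, 89.1, 96.0 and 93.6 CPM in SS and 144, 129, 136, 141 and 130 CPM in NOX4, a rise of 0.59 ± 0.08 (adjusted p = 7.63e-05). Crebbp, the histone acetyltransferase CBP that serves as coactivator of CREB, had 147, 136, 128, 150 and 140 CPM in SS and 81.7, 84.2, 84.7, 76.6 and 91.5 CPM in NOX4. Its groups were far apart for their spread (-0.75 ± 0.10, adjusted p = 7.63e-05). Prkag1, a regulatory subunit of the energy sensor AMPK, was lower (-1.03 ± 0.14, adjusted p = 0.000112), and Tmem223 (0.94 ± 0.12) and Slc22a17, a receptor for lipocalin 2 (0.78 ± 0.10), were higher. Crebbp and Prkag1 have 10103 and 18552 bases in the deposited table and fall in the class where 36.3% of genes were lower. So does Nfat5, the osmotic stress transcription factor (13565 bases), at 859 to 967 CPM in SS and 415 to 595 CPM in NOX4 (-0.93 ± 0.23, adjusted p = 0.00981), and Ryr2, a calcium release channel (14817 bases; -1.66 ± 0.42).

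Zbtb20, a transcriptional repressor, was among the 10 largest decreases named by the rule. It had 72.1, 59.5, 49.3, 69.0 and 61.6 CPM in SS and 13.3, 13.4, 18.3, 10.7 and 17.8 CPM in NOX4. The groups did not overlap, and NOX4 held 0.236 times the SS level (-2.08 ± 0.37, adjusted p = 0.000977). After 7 days of salt it was -2.07 ± 0.37 and in cortex on the control diet -2.60 ± 0.33, while after 21 days it was 0.16 ± 0.36 (adjusted p = 0.872). Among genes with a symbol, a mean of at least 1 CPM in either strain and a call that held with each single library left out, the largest increases were in genes of low level. Nkx1-2, Mrgprx1 and Ildr2 had log2 fold changes of 4.63 ± 1.15, 4.32 ± 0.94 and 4.23 ± 0.91 at mean levels of 2.03, 1.15 and 1.06 CPM in NOX4, and each had no count in SS libraries 2, 3 and 5. Baat, which conjugates bile acids, had 0.681, 0, 0, 0.284 and 0 CPM in SS and 1.53 to 2.62 CPM in NOX4 (3.27 ± 0.59, adjusted p = 0.00107). Dlgap3 (3.53 ± 0.80) and Slc35f1 (3.47 ± 0.75) likewise had no count in those 3 SS libraries, the low-complexity ones of this comparison. A fitted fold change against so few counts depends on the prior count. Sult4a1, a sulfotransferase, had 3.67, 0.890, 0, 0.426 and 1.11 CPM in SS and 4.78 to 24.0 CPM in NOX4 (3.08 ± 0.67), and Tm6sf2, of lipoprotein assembly, 0 to 2.46 and 3.98 to 13.7 CPM (2.87 ± 0.71).

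By edgeR none of 38 sodium, potassium and chloride transport genes was called (median -0.14), with 8 at an unadjusted p under 0.05, 2 called by DESeq2 and 5 by limma voom. None of 19 endothelin, nitric oxide and natriuretic genes was called by edgeR (median -0.08; 2 at an unadjusted p under 0.05, 1 by DESeq2, 2 by limma voom), and none of 28 interferon-stimulated genes (median 0.02; 1, 1 and 2). Of 22 hypoxia response genes 1 was lower (median -0.03; 3 called by DESeq2, 6 by limma voom), and of 33 complement and coagulation genes 1 was lower (median -0.22; 1 and 3), shares of 4.55% and 3.03% beside the 6.05% of all genes tested that were lower. A gene that missed the threshold is not shown to be equal in the strains.

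On the salt diets the same strain comparison rests on other libraries. After 7 days of 4.0% NaCl 5.23% of genes were higher and 4.39% lower in NOX4, and after 21 days 0.304% and 1.33%. The segment 3 median was 1.71 on the control diet, 0.33 at 7 days and 1.20 at 21 days. By edgeR 9, 0 and 0 of 12 genes were higher (11, 0 and 8 at an unadjusted p under 0.05). At 7 days the mean log2 CPM of that list was 5.23 to 8.53 in SS, highest in library 3, and 7.32 to 8.14 in NOX4. For segments 1 and 2 that SS library had 8.13, against 1.13 to 3.94 in SS on the control diet. SS libraries 1, 3 and 4 at 7 days were of low complexity. Whether diet or the makeup of these pieces set the lower median was not tested. Complex I medians were 0.32, 0.47 and 0.43, with 11, 17 and 9 of 31 genes higher. Matrix medians were -0.51, -0.70 and -1.10, with 10, 15 and 31 of 50 genes lower, and immediate early medians were -1.19, 0.09 and -0.14, with 8, 2 and 0 of 23 lower (14, 2 and 1 at an unadjusted p under 0.05; edgeR). The long-gene index was 2.46 to 2.78 in SS and 2.40 to 2.53 in NOX4 at 21 days, when no low-complexity library was present.

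A test of the difference itself, the strain effect at 21 days minus that on the control diet, called 4 genes (0.0253%). Hnrnpa0, an RNA-binding protein gene, was the only one with a gene symbol. It had 152, 189, 188, 185 and 134 CPM in SS and 298, 271, 278, 308 and 309 CPM in NOX4 on the control diet, 0.79 ± 0.12 apart (adjusted p = 0.00023). After 21 days the difference was -0.16 ± 0.11, and the interaction was -0.95 ± 0.16 (adjusted p = 0.0329). For Zbtb20 and Nr4a2 the interaction had adjusted p-values of 0.099 each. The count of 4 was 125 with DESeq2, 267 with the compared groups alone and 1432 with limma voom, and it was 0 when any 1 of 9 of the 20 libraries was left out. It thus does not show that the strain effects on the diets were alike.

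The strain effect on the control diet differed between outer medulla and cortex for most segment 3 genes. The strain effect in outer medulla minus that in cortex was called for 6.41% of genes in a fit of all 60 libraries, 847 higher in outer medulla (5.19%) and 199 lower (1.22%); values for outer medulla alone are those of the 30-library fit. Of 12 segment 3 genes 10 were called. Slc7a13 was 1.71 ± 0.56 in outer medulla and -3.02 in cortex, a difference of 4.75 ± 0.92 (adjusted p = 0.000836), and Odc1 was 1.64 and -1.96, a difference of 3.62 ± 0.59 (adjusted p = 0.000232). Agt was 1.93 and -1.96 (3.92 ± 0.76), Gss 1.61 and -1.14 (2.78 ± 0.55) and Slc22a7 2.29 and -2.51 (4.83 ± 0.96). The segment 3 median was -0.82 in cortex, where 3 of 12 genes were lower, beside 5.45% of all genes lower and 6.01% higher there. The median of the list for segments 1 and 2 was above 0 in both tissues, 1.99 in outer medulla and 0.50 in cortex. Scaled over all 60 libraries, the mean log2 CPM of the segment 3 list in cortex was 7.81 to 8.28 in SS and 6.49 to 7.05 in NOX4. SS cortex libraries 2, 3 and 4 were of low complexity. In both tissues the makeup of the pieces and the transcript level per cell cannot be told apart.

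Genes outside the proximal tubule lists also differed by tissue. Muc13, a membrane mucin, had 1.05 to 3.65 CPM in SS and 2.47 to 10.6 CPM in NOX4 outer medulla (1.78 ± 0.61, a call that 8 of 10 single omissions ended), and was -5.74 in cortex, the largest difference named here (7.55 ± 1.09, adjusted p = 5.37e-05). Cldn3, a tight junction claudin, was 0.90 ± 0.20 and -2.04 (2.98 ± 0.43), and Gstp1, a glutathione transferase, 0.66 ± 0.17 and -0.86 (1.55 ± 0.25). The homeobox gene Hoxb8 was 0.72 ± 0.12 and -0.60 (1.36 ± 0.22). Agtr1b and Nr4a2 were lower in outer medulla with cortex values of 0.01 and -0.49 (differences -1.12 ± 0.34 and -1.91 ± 0.42). The respiratory genes named did not show a difference by tissue that passed: Ndufb6 was 0.96 and 0.78 (0.21 ± 0.19, adjusted p = 0.575). With the segment 3 score as covariate no interaction was called. Without NOX4 outer medulla library 3 there were 581, and without the low-complexity libraries of both tissues 654. The score is computed from the segment 3 genes, so the fit with it cannot test their interactions.

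**Figure D5:**
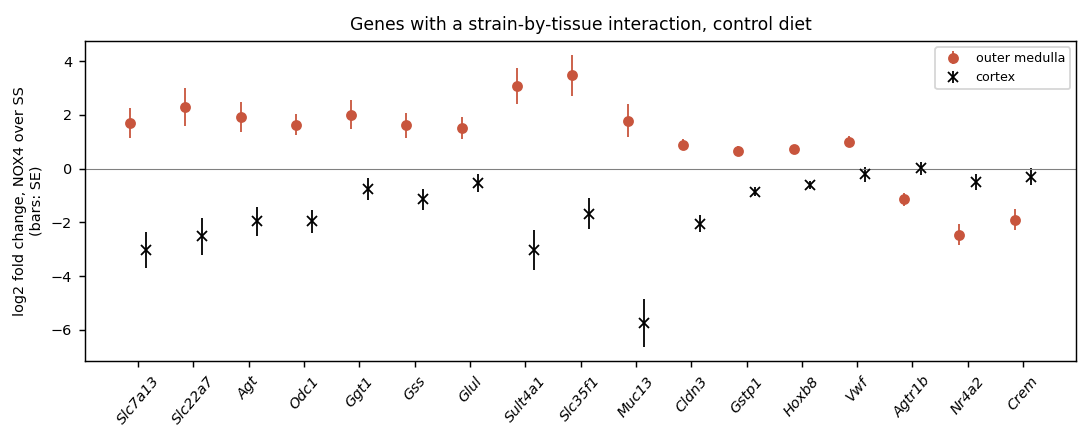
Points give the log2 fold change of NOX4 over SS on the control diet in outer medulla and cortex for 17 genes with a called difference between tissues, with bars for the SE. From Slc7a13 to Hoxb8 outer medulla lies above 0 and cortex under it, and for Agtr1b, Nr4a2 and Crem outer medulla lies under 0.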

How the data were processed

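The deposited table gives raw counts per gene and library, FPKM values, and for each comparison a log2 fold change, p-value and adjusted p-value, per the file headers. Per the submitters' processing notes the authors used HISAT2 2.0.5, StringTie 1.3.3b and featureCounts 1.5.0-p3. The genome build, the strand setting and the tool behind the deposited tests are not given in the sources used here. Per the labels' protocols, RNA of snap-frozen tissue was made into poly(A) libraries.

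From the counts (32545 genes) strains were compared with edgeR 4.0.16 in R 4.3.3 (filterByExpr by group, TMM, quasi-likelihood F test, 1 coefficient per group over the 30 outer medulla libraries; all 60 for the tissue comparison), with Benjamini-Hochberg adjustment over all genes tested. limma 3.58.1 and DESeq2 1.42.0 gave alternatives. An SE is the log2 fold change over the square root of F. CPM were scaled by TMM, and log2 CPM used a prior count of 2. Counts carry no molecular identifiers. Of 1085 entries in 45 gene lists 1044 matched, 24 of them through a GRCr8 symbol table. The procedure was tested on simulated data.

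Members, lists and tests were chosen with earlier results of these data known. Genes were named by rule: Nox4; the extremes of log2 fold change, 10 on each side, and the 6 smallest p-values among genes called with each library left out (symbol, mean CPM of at least 1 in either group), up to 4 called members per list, cell type markers, and the 6 smallest p-values per interaction. Fos, Egr1, Egr2, Nr4a1, Jun, Jund, Fosb, Dusp1, Sat1, Gclm, Glrx, Nfe2l2, Pdk4, Fn1, Fbn1, Timp1, Tff3, Mki67, Top2a and Plin1 were named after their values were seen. Replicate numbers were not treated as pairs.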

Additional observations from a re-analysis of the deposited data

Results flagged for a closer look

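For 7 of the genes named, a single library's gap to the nearest other library of its group exceeded 0.71 of the group's range on the log2(CPM + 1) scale (Dixon's 95% value for 5 libraries), and about 1 group in 20 would do so by chance. On a linear scale other genes could qualify. The 7 were Adipoq in SS library 5 (4.58 CPM), Ildr2 in SS library 1 (0.21 CPM), Lpl in NOX4 library 5 (110 CPM), Bckdha in SS library 5 (239 CPM), Bub1b in SS library 5 (11.4 CPM), Lcn2 in SS library 3 (81.7 CPM) and Spp1 in NOX4 library 2 (2780 CPM).

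The strain effect differed between diets for Hnrnpa0, with an interaction of -0.95 (21 days of salt minus control diet, log2), and for the unnamed gene models AABR07015081.1 (3.18) and AABR07015081.2 (2.30). It differed between tissues, by the interaction test, for many of the genes named, and the values that follow are the strain effect in outer medulla minus that in cortex on the log2 scale. Among proximal tubule and metabolic genes they were 4.75 for Slc7a13, 4.83 for Slc22a7, 2.79 for Ggt1, 2.67 for Anpep, 3.92 for Agt, 3.62 for Odc1, 2.09 for Glul, 1.40 for Cbs, 2.78 for Gss, 3.29 for Gclm, 3.88 for Cidec, 0.97 for Prdx6, 0.90 for Acadm, 0.80 for Acads and 0.77 for Mpc2. Among the genes with the largest increases in outer medulla they were 5.33 for Nkx1-2, 5.05 for Mrgprx1, 4.12 for Ildr2, 6.13 for Sult4a1, 5.17 for Slc35f1, 3.72 for Dlgap3, 2.91 for Baat and 2.85 for Tm6sf2. Muc13 had 7.55, Cldn3 2.98, Krt19 2.56, Tff3 4.45, Gstp1 1.55, Hoxb8 1.36, Vwf 1.25, Slc22a17 0.60 and Tmem223 0.56. Values below 0 were found for Agtr1b (-1.12), Crem (-1.56), Jun (-1.55), Sat1 (-0.82) and Nr4a2 (-1.91).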

How the results depend on the processing

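Counts of genes higher and lower in NOX4 were within 1.5 times 1390 and 956 with DESeq2 size factors, DESeq2, no filter, a filter at 1 CPM, the compared groups alone and without low-complexity libraries. limma voom with quality weights gave 2212 and 1898, the segment 3 score as covariate 297 and 162, and the long-gene index, added after the data were seen, 17 and 32. Leaving out 1 library gave 762 to 1542 higher and 467 to 939 lower. The diet interaction (4 genes) gave 125 with DESeq2, 1432 with voom, 267 with the compared groups alone, 17 with the segment 3 score, 0 with the long-gene index, 22 without low-complexity libraries and 0 to 7 with 1 library left out. The tissue interaction (1046) gave 1728 with voom, 0 with the segment 3 score, 654 without low-complexity libraries and 581 to 1328 with 1 library left out. The cause of these shifts was not tested.

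With the replicate number as a block the counts were 1058 higher and 761 lower, with 5 diet and 853 tissue interactions. Same-numbered outer medulla libraries of the strains on the control diet did not deviate together (correlations -0.15 to 0.06). Between the strains the numbers thus name libraries only. Between outer medulla and cortex, SS libraries 1, 2 and 3 matched the same number best (correlations 0.17, 0.05 and 0.05). In NOX4 library 2 alone did (0.04). Whether same-numbered libraries of the tissues share a rat was not tested. With the block 22 of 94 called genes named in the text lost their call. Of those 94, 62 lost the call and 3 reversed with the segment 3 score (Slc7a13 at -0.12, Anpep at -0.15 and Gclm at -0.08). That score is the mean log2 CPM of the segment 3 list, which holds Slc7a13, Slc22a7, Slc27a2 and Ggt1. The fit therefore cannot test those genes, as it adjusts them for their own mean. With the long-gene index 89 lost the call and 3 reversed (Gstp1 at -0.05, Pdk4 at 0.08 and Tff3 at -0.16). Without low-complexity libraries 37 lost it. The Nox4 difference was -4.71 CPM without a log scale (exact p = 0.0397), -0.94 by edgeR (adjusted p = 0.293) and -1.35 to -0.93 with 1 library left out (exact p = 0.00794 to 0.0635). SS libraries of 12.1 to 18.8 M counts and 3 of low complexity limit what can be said of genes of low level. This reaches genes with a median of 2 to 5 CPM over the outer medulla libraries. Of these, 125, 104 and 185 had no count in SS libraries 2, 3 and 5. In SS libraries 1 and 4 the numbers were 1 and 0, and in each NOX4 library 0.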

Other observations

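Near each other on chromosome 14 (46523594 to 46657975 in the deposited coordinates; build not given in the sources used here) lay 3 unnamed gene models with some of the largest decreases, singled out after their values were seen. AABR07015057.1 stood at 589 to 967 CPM in SS and 82.5 to 163 CPM in NOX4 (-2.80 ± 0.43, adjusted p = 0.000287), AABR07015081.2 at 393 to 562 and 84.7 to 148 CPM (-2.09 ± 0.31) and AABR07015081.1 at 132 to 409 and 21.3 to 40 CPM (-2.93 ± 0.43). All 3 were lower in 5 of 5 NOX4 libraries. After 7 days of salt their log2 fold changes were -2.53, -1.71 and -2.43 and in cortex on the control diet -3.40, -2.31 and -3.05, while after 21 days they were 0.06, 0.21 and 0.25. The difference between 21 days and the control diet was called for the last 2 (interaction 2.30 ± 0.43 and 3.18 ± 0.59, adjusted p = 0.0464 each) and not for the first (2.86 ± 0.58, adjusted p = 0.0757). The models AABR07015081.2 and AABR07015081.1 lie on opposite strands and overlap, and the counting is not stated to use strand, so their reads cannot be told apart.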
